A study of Mus musculus with 9 samples.

Results

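The genes described here encode the proteins of the cytosolic ribosome, together with a few copies and similarly named genes. They were chosen by symbol alone: every gene with a probe set naming no other gene and a symbol of Rpl or Rps followed by a digit, plus Rplp0, Rplp1, Rplp2 and Rpsa, without the Rps6k kinase genes and without symbols that end as pseudogenes do. The rule found 63 of the 19938 genes with such a probe set. Of the 63 genes, 54 are standard subunits of the ribosome, 33 of its large and 21 of its small subunit. The other 9 are Rpl3l, Rpl7l1, Rpl10l, Rpl32l, Rpl39l, Rps4l, Rps23rg1, Rps27l and Rps19bp1. Of these, 8 passed the filter on dim genes and Rpl39l did not, whereas all 54 standard genes passed it. A list of 80 standard genes of the mouse ribosome was set beside the rule, and 25 of them had no probe set of their own, among them Rpl3, Rpl11, Rpl15, Rpl39 and Rps27. They are not analysed here.

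The study measured RNA at postnatal day 13 in 3 groups of 3 arrays each: cerebellum of wildtype mice, cerebellum of Sufu KO mice, and medulloblastoma, a tumour of the cerebellum, of Ptch1 KO mice. Ptch1 is the receptor that restrains Hedgehog signalling and Sufu a downstream inhibitor of the Gli transcription factors, so loss of either releases the pathway. Total RNA of each dissected tissue was hybridised to an Affymetrix Mouse Gene 1.0 ST array. The labels name no strain, Cre driver or deleted exon. They also leave unsaid whether each sample was a different animal, and p-values therefore reflect only how far the samples of a group lie apart, which can be technical. The precision is limited by 3 arrays a group.

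The ribosome joins a small subunit, which reads the mRNA, to a large subunit, which forms the peptide bond, and most of its proteins are needed in equal numbers. Their mRNAs are among the most abundant of a growing cell. Nearly all begin with a 5′ terminal oligopyrimidine (TOP) tract, a run of C and U at the cap through which mTORC1 and Larp1 set their translation and stability, while Myc family factors, including the Mycn of granule neuron progenitors, raise transcription of ribosome genes.

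The start sites of 8 genes are printed because the run of C and T at the start is what TOP control reads, and because these genes lie at the ends of the range in the tumours: the 5 largest and the 3 smallest differences from wildtype among standard genes with 1 listed start. Each line runs 5′ to 3′ on the coding strand from 30 bases before to 20 bases after the start listed by RefSeq (GRCm38.p6), and capitals mark the longest run of C and T touching the 10 bases on either side of that start. The start in use in these tissues was not measured.
Rpsa: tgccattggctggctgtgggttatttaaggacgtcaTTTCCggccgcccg
Rps4x: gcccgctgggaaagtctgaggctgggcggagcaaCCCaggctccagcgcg
Rpl5: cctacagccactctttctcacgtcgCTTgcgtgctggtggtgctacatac
Rps12: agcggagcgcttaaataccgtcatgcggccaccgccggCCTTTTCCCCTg
Rpl26: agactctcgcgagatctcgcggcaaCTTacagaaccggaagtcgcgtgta
Rpl27: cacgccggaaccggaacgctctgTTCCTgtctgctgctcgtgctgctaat
Rpl14: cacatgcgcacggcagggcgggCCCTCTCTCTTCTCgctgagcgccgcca
Rps6: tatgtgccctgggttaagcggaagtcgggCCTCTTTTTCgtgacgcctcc
The windows lie at chr9:120127736-120127785 (plus strand) for Rpsa, chrX:102189372-102189421 (minus) for Rps4x, chr5:107900498-107900547 (plus) for Rpl5, chr10:23787190-23787239 (minus) for Rps12, chr11:68901536-68901585 (plus) for Rpl26, chr11:101442215-101442264 (plus) for Rpl27, chr9:120571487-120571536 (plus) for Rpl14 and chr4:86857348-86857397 (minus) for Rps6. The run was 14 bases in Rpl14, 11 in Rps12 and 10 in Rps6, and between 3 and 5 in the other 5. Of these long runs, that of Rps12 belongs to a gene with a large difference and the others to genes with small ones. The Rps12 run begins only at base 9 after the listed start, and Rpl5 has a longer run, ctctttctc, just outside the 10 bases. Whether run length goes with the difference was not tested on these 8 picked genes.

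RefSeq promoters of 300 bases (250 before and 50 after the start) were found for 51 of the 63 genes, 43 of them standard. A run of at least 8 pyrimidines near the start was present in 16 of these 43, or 37.2%, against 13.5% of all 27025 promoters in the table. The letters CTTTC on the coding strand within 20 bases of the start were held by 25.6% of the standard genes and 5.38% of all promoters, and CTCTT by 20.9% and 5.57%. The letters GGAAGT on either strand, the core that GABP and other ETS factors bind, were in 53.5% of the 43 promoters and 24.1% of all. The E-box CACGTG, which reads the same on both strands and is bound by Myc, was in 9.3% against 7.24%, and TATAA on either strand in 25.6% against 25.5%. CTTTC and CTCTT can overlap each other and the pyrimidine run, and each match is a description of letters only.

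Most standard ribosomal protein genes were higher in the tumours than in wildtype, fewer of them were called higher in the Sufu KO cerebellum, and none of the 54 was called lower in either. A gene was called where limma's test gave an adjusted p (Benjamini-Hochberg over all 16323 genes tested) under 0.05. Counts of probe sets called come from a separate fit over all 35556 probe sets, without the filter on dim genes. In the tumours 51 of 54 were called higher than in wildtype, beside 22.1% of all tested genes. In the Sufu KO cerebellum 30 of 54 were called higher, beside 13% of all genes. Between the mutants, 41 of 54 were called higher in the tumours, beside 12.2%. A called rise of at least 1 log2 unit was reached by 13 of 54 genes in the tumours against wildtype, beside 3.43% of all tested genes. It was reached by 0 of 54 in Sufu KO against wildtype and by 0 between the mutants, beside 1.14% and 0.754%. The median log2 difference of the 54 genes was 0.78 in the tumours against wildtype, 0.34 in Sufu KO against wildtype and 0.46 in the tumours against Sufu KO, while the medians over all tested genes lay between -0.0127 and -0.00605. The 3 comparisons share their arrays in pairs and are not independent of one another. Over all 62 tested genes that the rule found, 55, 32 and 43 were called higher in the same order of comparisons, and limma called 0 lower, with 0 lower at an unadjusted p under 0.05 as well. In bulk tissue, a change in the number of cells of a type and a change in RNA per cell cannot be told apart.

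**Figure D1:**
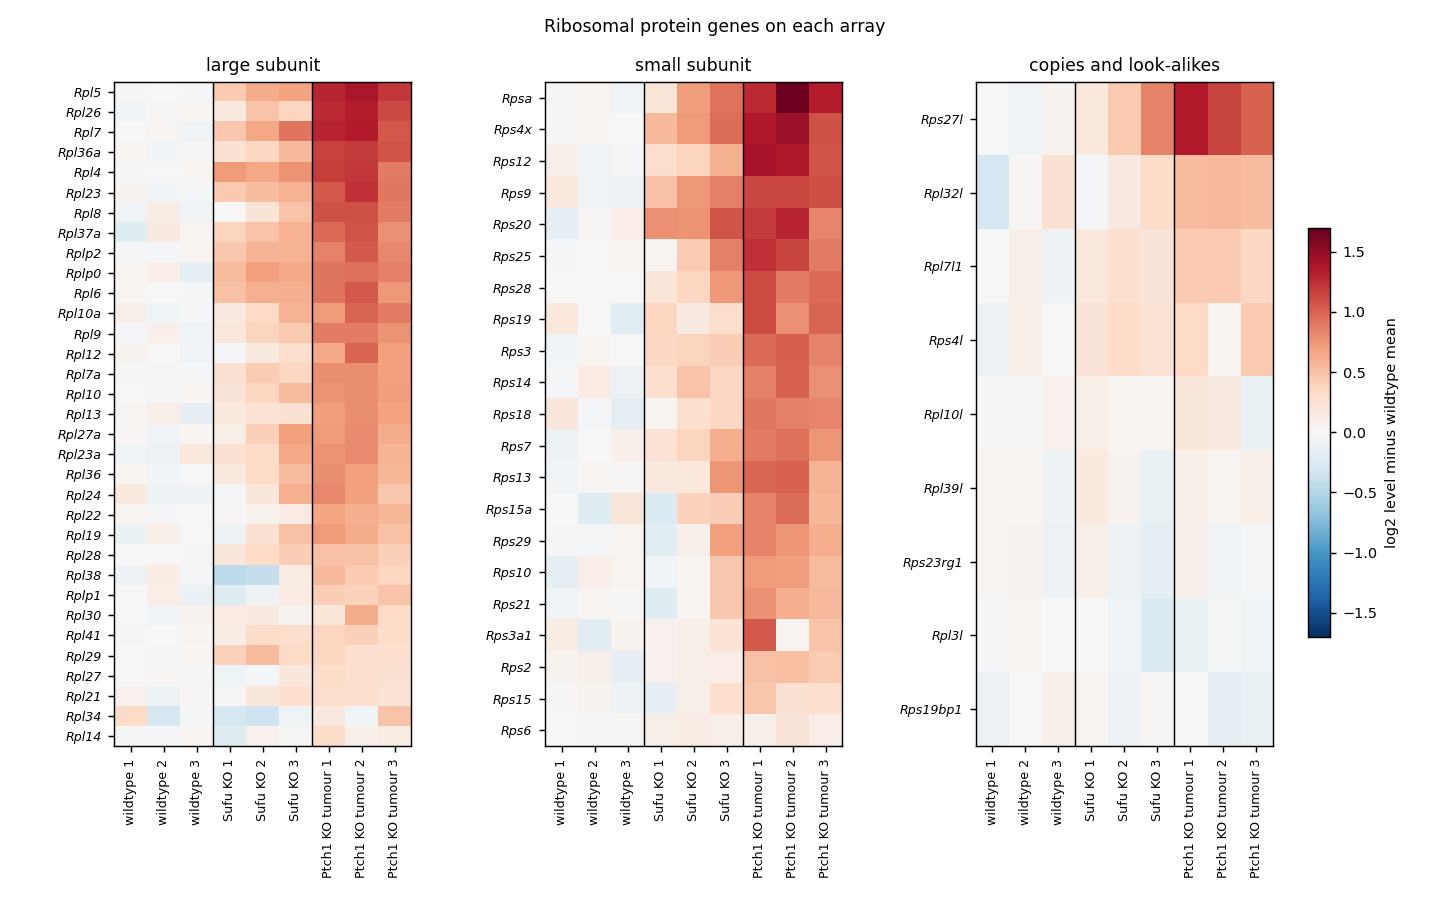
Log2 difference from the mean of the 3 wildtype arrays for each of the 54 standard genes (rows) and of the 9 copies and look-alikes, for all 9 arrays (columns). The 3 tumour arrays are the most strongly raised, with a median difference of 0.698 to 0.838, and the Sufu KO arrays lie between, at 0.166 to 0.476.

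Every Sufu KO array lay above every wildtype array in 33 of the 54 genes, beside 21.3% of all tested genes, and every tumour array above every wildtype array in 52, beside 26.4%. The exceptions in the tumours were Rpl34 and Rps3a1. Every tumour array lay above every Sufu KO array in 40 genes, beside 16.1%. In 25 of the 54 genes the groups stood in full order, with every wildtype array below every Sufu KO array and every Sufu KO array below every tumour array, beside 8.6% of all tested genes. All 3 comparisons were called higher in 24 of 54, beside 5.62%. Each of the 30 genes called in Sufu KO was also called in the tumours.

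Among proteins of the small subunit, Rpsa, which sits on the outer face of the subunit and is also known as the laminin receptor, showed the largest difference. Its log2 level was 9.26, 9.29 and 9.16 on the wildtype arrays, 9.44, 9.95 and 10.16 on the Sufu KO arrays, and 10.51, 10.91 and 10.57 on the tumour arrays. The 3 groups did not overlap, and Sufu KO replicate 1 was closest to wildtype. The log2 difference from wildtype was 1.42 (SE 0.16) in the tumours, a 2.68-fold rise (adjusted p = 9.49e-06), and 0.61 in Sufu KO (adjusted p = 0.0126). All 5 probe sets of Rpsa were called in each comparison, with tumour differences between 0.89 and 1.42.

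Rps4x, whose gene lies on the X chromosome, read 9.83, 9.88 and 9.84 in wildtype, 10.40, 10.58 and 10.80 in Sufu KO, and 11.21, 11.32 and 10.94 in the tumours. No array of one group entered the range of another. The differences from wildtype were 0.74 in Sufu KO (1.67-fold, adjusted p = 0.00047) and 1.31 in the tumours (2.47-fold, adjusted p = 1.07e-06), each with an SE of 0.11.

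Rps12, a protein of the small subunit's beak, read 8.92, 8.77 and 8.82 in wildtype, 9.13, 9.22 and 9.44 in Sufu KO, and 10.23, 10.20 and 9.91 in the tumours. Its rise lay mostly between the mutants, with 0.43 from wildtype to Sufu KO (adjusted p = 0.00881) and 0.85 from Sufu KO to the tumours (adjusted p = 8.45e-05). Whether the 2 steps differ was not tested.

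Rps20 was at the other end in this respect. It read 10.48, 10.64 and 10.72 in wildtype, 11.38, 11.38 and 11.69 in Sufu KO, and 11.81, 11.91 and 11.44 in the tumours. Its difference of 0.87 (1.83-fold, adjusted p = 0.00033) was the largest of all 54 genes in Sufu KO. The tumours stood 0.23 above Sufu KO with overlapping arrays (95% interval -0.04 to 0.50, adjusted p = 0.197), and without tumour replicate 3 this difference was 0.37 (adjusted p = 0.021). Rps9, which joins the subunit early in its assembly, rose by 0.70 in Sufu KO and 1.12 in the tumours (adjusted p = 0.000293 and 1.26e-06).

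Rps19, the protein most often mutated in Diamond-Blackfan anaemia, read 8.61, 8.44 and 8.25 in wildtype, 8.80, 8.59 and 8.74 in Sufu KO, and 9.54, 9.20 and 9.42 in the tumours. The tumours were apart from both other groups (0.95 above wildtype, adjusted p = 1.19e-05), while the lowest Sufu KO array, 8.59, lay below the highest wildtype array, 8.61. The Sufu KO difference of 0.27 was not called (adjusted p = 0.0862), and it was called without wildtype replicate 1 (0.36, adjusted p = 0.0417). Of the 8 measured genes of that disease (Rps7, Rps10, Rps19, Rps28, Rps29, Rpl5, Rpl26 and Rpl27), 4 were called higher in Sufu KO and 8 in the tumours, beside 30 and 51 of the 54 standard genes and 13% and 22.1% of all tested genes.

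Rps6, the substrate of the S6 kinases downstream of mTORC1, was the brightest of the genes and had the smallest tumour difference of the 54. It read 12.40, 12.39 and 12.42 in wildtype, 12.51, 12.53 and 12.50 in Sufu KO, and 12.50, 12.62 and 12.52 in the tumours. Each mutant array lay above all wildtype arrays, but the differences were 0.11 and 0.14 and neither was called (adjusted p = 0.241 and 0.0812). The call depended on the probe set: 7 of its 8 probe sets were called higher in the tumours, and the brightest, which stands for the gene, had the smallest difference of the 8, which ran from 0.14 to 0.38. For its dimmest probe set the difference was 0.33 (adjusted p = 0.0009).

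**Figure D2:**
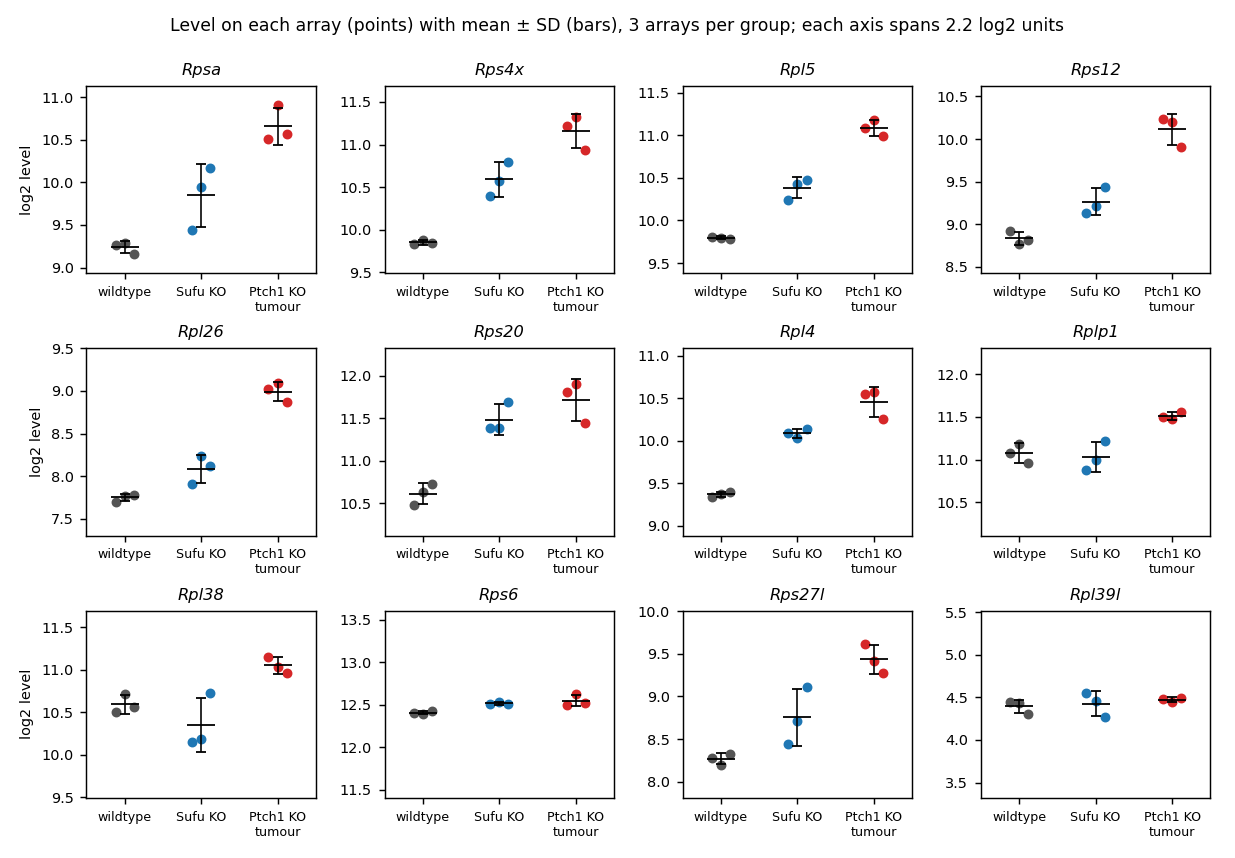
Log2 level of selected ribosomal protein genes on each array, grouped as wildtype, Sufu KO and tumour, with each point an array and bars the mean ± SD of 3 arrays. Rpl5 and Rps4x separate all 3 groups, Rps20 overlaps between the mutants, and Rps6 stays between 12.39 and 12.62 on all 9 arrays.

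In the large subunit, Rpl5 binds the smallest rRNA of the large subunit with Rpl11, in the particle that can also restrain Mdm2. It read 9.81, 9.80 and 9.78 in wildtype, 10.24, 10.43 and 10.48 in Sufu KO, and 11.09, 11.18 and 10.99 in the tumours. The gaps between the groups were wider than the spread within any of them. The differences were 0.59 in Sufu KO (SE 0.08, adjusted p = 0.000202), 1.29 in the tumours (2.45-fold, adjusted p = 7.99e-08) and 0.71 between the mutants (adjusted p = 4.77e-05).

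Rpl26, which lies near the exit of the nascent peptide, had the largest difference between the mutants. It read 7.70, 7.77 and 7.78 in wildtype, 7.91, 8.24 and 8.12 in Sufu KO, and 9.02, 9.09 and 8.87 in the tumours. The tumours stood 0.90 above Sufu KO (1.87-fold, adjusted p = 2.54e-05), and Sufu KO 0.34 above wildtype (adjusted p = 0.0143). The smaller step was not called without wildtype replicate 1 (adjusted p = 0.0551) or without Sufu KO replicate 2 (adjusted p = 0.0709). Rpl36a and Rpl8, a protein close to the peptidyl transferase centre, were next in the tumours against Sufu KO among large subunit genes, with 0.75 and 0.77 (adjusted p = 3.77e-05 and 0.000291).

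Rpl4, which lines the exit tunnel, and Rpl7 rose most in Sufu KO among large subunit genes. Rpl4 read 9.34, 9.37 and 9.40 in wildtype, 10.09, 10.03 and 10.14 in Sufu KO, and 10.55, 10.57 and 10.26 in the tumours. Its difference of 0.72 in Sufu KO was 1.64-fold (adjusted p = 8.69e-05), and that of Rpl7 was 0.67 (1.60-fold, adjusted p = 0.000847). In the tumours they stood 1.09 and 1.23 above wildtype.

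Rpl22, an RNA-binding protein that is dispensable for the ribosome itself, showed its rise in the tumours alone among the arrays: 8.05, 7.96 and 7.99 in wildtype, 8.03, 8.06 and 8.15 in Sufu KO, and 8.67, 8.63 and 8.56 in the tumours. The Sufu KO difference was 0.07 (95% interval -0.07 to 0.22, adjusted p = 0.477), against 0.62 in the tumours (adjusted p = 6.94e-06) and 0.54 between the mutants (adjusted p = 8.44e-05).

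The P stalk, the mobile arm that recruits the elongation factors, consists of Rplp0 with Rplp1 and Rplp2 and is anchored beside Rpl12. All 4 genes were called higher in the tumours against either other group, beside 51 of the 54 standard genes against wildtype and 41 against Sufu KO. In Sufu KO against wildtype Rplp0 and Rplp2 were called, beside 30 of the 54. Of all tested genes, 22.1%, 12.2% and 13% were called higher in these comparisons. Rplp0 read 11.38, 11.45 and 11.18 in wildtype, 11.88, 12.03 and 11.98 in Sufu KO, and 12.25, 12.28 and 12.19 in the tumours, differences of 0.63 and 0.90 from wildtype (adjusted p = 0.000162 and 1.6e-06). Its step between the mutants was 0.27 (adjusted p = 0.0207) and was not called without Sufu KO replicate 1 or tumour replicate 1 or 2 (adjusted p from 0.062 to 0.0761), or after quantile normalization (0.21, adjusted p = 0.088). Rplp1, its partner in the stalk, read 11.08, 11.19 and 10.96 in wildtype, 10.88, 10.99 and 11.22 in Sufu KO, and 11.49, 11.47 and 11.56 in the tumours. For Rplp1 the wildtype and Sufu KO arrays were interleaved (-0.05, 95% interval -0.25 to 0.15, adjusted p = 0.787), and the tumours stood 0.43 above wildtype (adjusted p = 0.0017). Rplp2 rose by 0.54 and 0.90 (adjusted p = 0.000303 and 1.04e-06), and Rpl12 differed by 0.15 in Sufu KO (adjusted p = 0.337; 0.33 with sex as a covariate, adjusted p = 0.0157) and rose by 0.78 in the tumours (adjusted p = 3.81e-05).

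A few genes moved otherwise or not at all by the test. Rpl38, a small protein at the edge of the large subunit, known for its role in translating Hox mRNAs, read 10.50, 10.72 and 10.57 in wildtype, 10.15, 10.19 and 10.72 in Sufu KO, and 11.15, 11.03 and 10.96 in the tumours. In Sufu KO, replicates 1 and 2 lay below every wildtype array and replicate 3 level with the highest. Its difference of -0.24 there was not called (adjusted p = 0.218), but without Sufu KO replicate 3 it was -0.42 and called lower (adjusted p = 0.00463). In the tumours it was called higher, by 0.46 (adjusted p = 0.0115).

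Rpl29 was the sole gene of the 54 whose mean was lower in the tumours than in Sufu KO. It read 9.47, 9.42 and 9.49 in wildtype, 9.85, 9.996 and 9.80 in Sufu KO, and 9.83, 9.74 and 9.75 in the tumours. Both mutant groups were apart from wildtype (0.42 and 0.31, adjusted p = 0.000966 and 0.0025) and overlapped each other (-0.11, 95% interval -0.26 to 0.04, adjusted p = 0.304).

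Rpl14 and Rpl34 were, with Rps6, the genes not called in the tumours. Rpl14 read 7.42, 7.41 and 7.47 in wildtype, 7.22, 7.50 and 7.46 in Sufu KO, and 7.75, 7.52 and 7.55 in the tumours (0.17 above wildtype, adjusted p = 0.126). Rpl34 read 7.71, 7.08 and 7.35 in wildtype, 7.09, 7.03 and 7.30 in Sufu KO, and 7.55, 7.34 and 7.86 in the tumours (0.20, adjusted p = 0.344). Both are dim for this family and have 1 probe set each, and Rpl34 had the largest spread of the genes in wildtype, with an SD of 0.316. Rps3a1 had the largest in the tumours, where its 3 arrays read 9.01, 8.02 and 8.46 (SD 0.50). Its tumour difference of 0.53 (adjusted p = 0.0354) was not called without wildtype replicate 2 or 3 or without tumour replicate 1 or 3. It was 0.27 without tumour replicate 1 (adjusted p = 0.135) and 0.33 with sex as a covariate (adjusted p = 0.222), and it was not called in the fit of the 6 arrays of these groups (adjusted p = 0.0542). Besides Rpl29, the smallest called tumour differences were those of Rpl21 at 0.27, Rpl27 at 0.28, Rps15 at 0.34 and Rpl41 at 0.36 (adjusted p = 0.0124, 0.0071, 0.0165 and 0.000942). The calls of Rpl21 and Rps15 were lost on leaving out 1 array: Rpl21 without wildtype replicate 2 (0.23, adjusted p = 0.0589), and Rps15 without wildtype replicate 3 (0.29, adjusted p = 0.0654) or tumour replicate 1 (0.27, adjusted p = 0.0761).

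**Figure D3:**
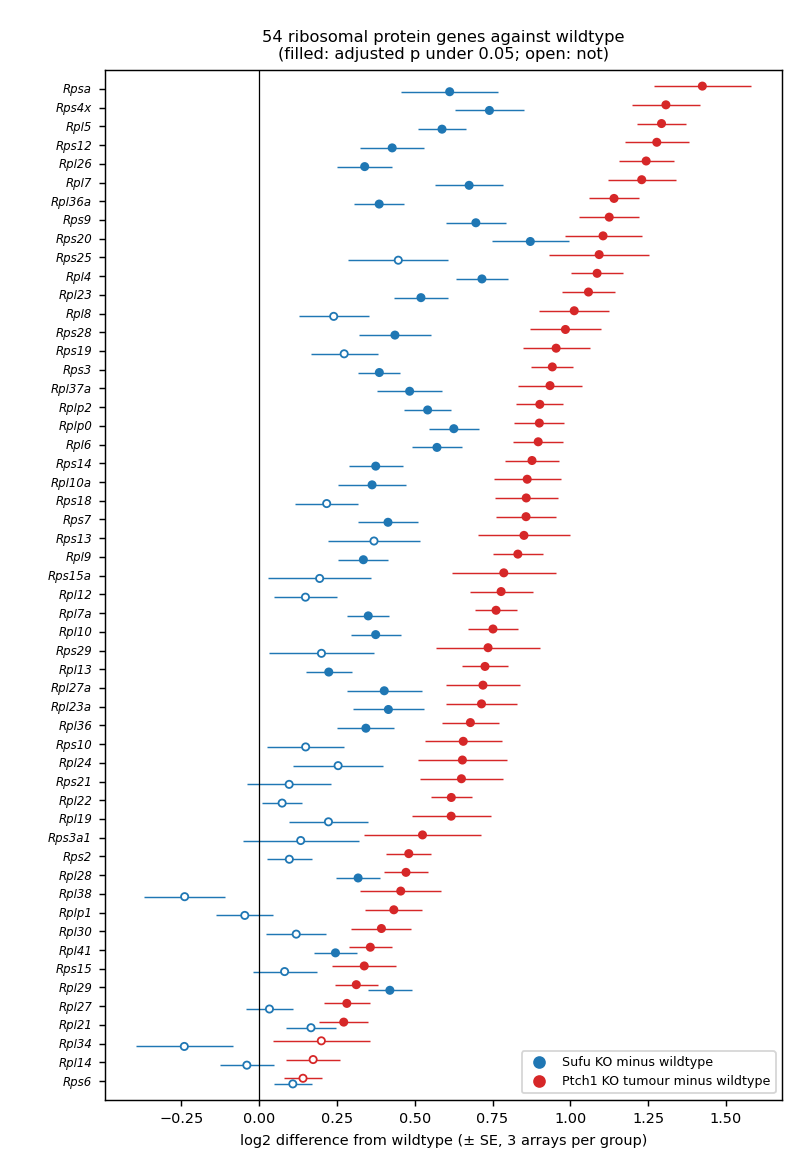
Log2 difference from wildtype of each standard gene, for Sufu KO and for the tumours; bars are the SE of the limma fit and filled points are called. Differences run from -0.24 to 0.87 in Sufu KO and from 0.14 to 1.42 in the tumours, and 53 of 54 genes stood higher in the tumours than in Sufu KO.

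In the tumours 31 of 33 large and 20 of 21 small subunit genes were called higher, beside 22.1% of all tested genes. Their median differences were 0.73 and 0.86, and all 33 and all 21 differences were above 0. In Sufu KO 21 of 33 and 9 of 21 were called higher, beside 13% of all tested genes, with medians of 0.34 and 0.37. There 29 of 33 and 21 of 21 differences were above 0. Whether the subunits differ was not tested. Bright genes moved less in the tumours: the 13 genes with a mean log2 level in the top 1% of all tested genes (99th percentile) had a median tumour difference of 0.48, against 0.86 for the other 41. In Sufu KO the medians were 0.22 and 0.37. The part of signal saturation in these values was not tested. Over the 54 genes, which share their arrays, the Pearson r of mean level and difference from wildtype was -0.07 in the tumours and 0.22 in Sufu KO. For the difference between the mutants it was -0.37.

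The Sufu KO arrays were spread out along the family as a whole. Sufu KO replicate 3 was the highest of its group in 44 of the 54 genes and replicate 1 the lowest in 47, and their median differences from the wildtype mean were 0.166, 0.343 and 0.476 for replicates 1, 2 and 3. Among the tumours, replicate 3 was the lowest in 41 genes, and the median differences were 0.838, 0.831 and 0.698. The median SD of the standard genes was 0.159 in Sufu KO, against 0.0932 for all tested genes, and 0.0604 in wildtype, against 0.0789. Without Sufu KO replicate 3, 24 of 54 genes were called in Sufu KO against wildtype, and without replicate 1, 36 were. The shares of all tested genes called in these fits were not set beside the counts, so the shift may not be particular to the family.

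Sufu KO replicate 3 and tumour replicate 2 had high Xist and the other 4 mutant arrays high Y-linked genes, while all 3 wildtype arrays had high Xist, so sex and genotype are partly mixed. With sex as a covariate 35 of 54 genes were called in Sufu KO and 50 in the tumours. The share of all tested genes called in that fit was not set beside these counts. The sex term rests on the mutant arrays alone, with Sufu KO replicate 3 and tumour replicate 2 against the other 4. Sufu KO replicate 3 was also the highest of its group in 44 of the 54 genes. The fit therefore cannot separate sex from other traits of these 2 arrays. The X-linked genes Rpl10, Rpl36a and Rps4x were called in all 3 comparisons with and without it. With the covariate, their differences from wildtype were 0.47, 0.49 and 0.93 in Sufu KO and 0.85, 1.24 and 1.49 in the tumours, all above those of the plain fit.

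Among the copies and look-alikes, 2 of the 8 tested were called higher in Sufu KO, 4 in the tumours and 2 between the mutants, beside 13%, 22.1% and 12.2% of all tested genes. Whether these counts differ from those shares was not tested, and 8 genes are few. Rps27l, a copy of Rps27 known as a p53 target, read 8.27, 8.20 and 8.33 in wildtype, 8.44, 8.71 and 9.11 in Sufu KO, and 9.62, 9.41 and 9.27 in the tumours. The groups were in full order, and its differences of 0.49 (adjusted p = 0.0233) and 1.17 (2.25-fold, adjusted p = 2.0e-05) from wildtype lay within the range of the standard genes. The call in Sufu KO was lost without wildtype replicate 1 or 2 or Sufu KO replicate 2 or 3, with 0.31 in the last case (adjusted p = 0.0637).

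Rpl7l1, a nucleolar relative of Rpl7, rose by 0.22 and 0.41 (adjusted p = 0.0331 and 0.000295), against 0.67 and 1.23 for Rpl7 itself. Its Sufu KO call was lost without wildtype replicate 1 or 3 or Sufu KO replicate 2 or 3 (adjusted p from 0.0625 to 0.127). Rpl10l, the copy that serves in male germ cells, differed by 0.06 and 0.08 (adjusted p = 0.702 and 0.499), while Rpl10 rose by 0.37 and 0.75. Rpl3l, the striated muscle form of Rpl3, differed by -0.10 and -0.06 (adjusted p = 0.382 and 0.542), and its levels, 5.31 to 5.59 on the 9 arrays, were low. Rpl39l, another germ cell form, read between 4.27 and 4.55 on all arrays, below the filter. Rps19bp1, which is no ribosomal protein but binds Rps19, differed by -0.01 and -0.09 (adjusted p = 0.94 and 0.402). Rps23rg1, a retrocopy of Rps23, differed by -0.05 and -0.01. Rpl32l was called in the tumours (0.53, adjusted p = 0.00302), as was Rps4l (0.28, adjusted p = 0.032). The call of Rps4l was lost without wildtype replicate 1 or 3 or tumour replicate 1 or 3, and its difference was 0.20 without tumour replicate 3 (adjusted p = 0.124) and 0.16 with sex as a covariate (adjusted p = 0.24). The mean of its probe sets gave 0.17 (adjusted p = 0.138), the dimmer of them 0.07 (adjusted p = 0.618), and arrays shifted to a common median 0.25 (adjusted p = 0.0514).

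Ribosomal protein genes have many processed pseudogenes, and a probe can read RNA of a near-identical copy, so single values are uncertain in that respect. The 54 genes have 209 probe sets, in which 197 different value profiles occur, because 19 probe sets of 5 genes share their values with another. Shared profiles are counted as often as they occur. Calls of probe sets come from the separate fit over all 35556 probe sets and can differ from those of the genes. Rpl27a was called in Sufu KO as a gene (adjusted p = 0.0273), while 0 of its 9 probe sets were called there. The 155 probe sets that do not stand for their gene belong to 38 genes. Of them, 153 were called higher in the tumours, 81 in Sufu KO and 103 between the mutants. The share of all probe sets called in that fit was not set beside these counts. Of these other probe sets 1, of Rps2, was called lower, in Sufu KO against wildtype. Their median differences were 0.35 in Sufu KO and 0.78 in the tumours, close to those of the probe sets that stand for the genes. Probe sets of a gene share their RNA and are not replicates. The 16 genes with 1 probe set had medians of 0.26 and 0.84 in Sufu KO and in the tumours. In the fit over genes, 7 and 14 of them were called higher, beside 13% and 22.1% of all tested genes.

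**Figure D4:**
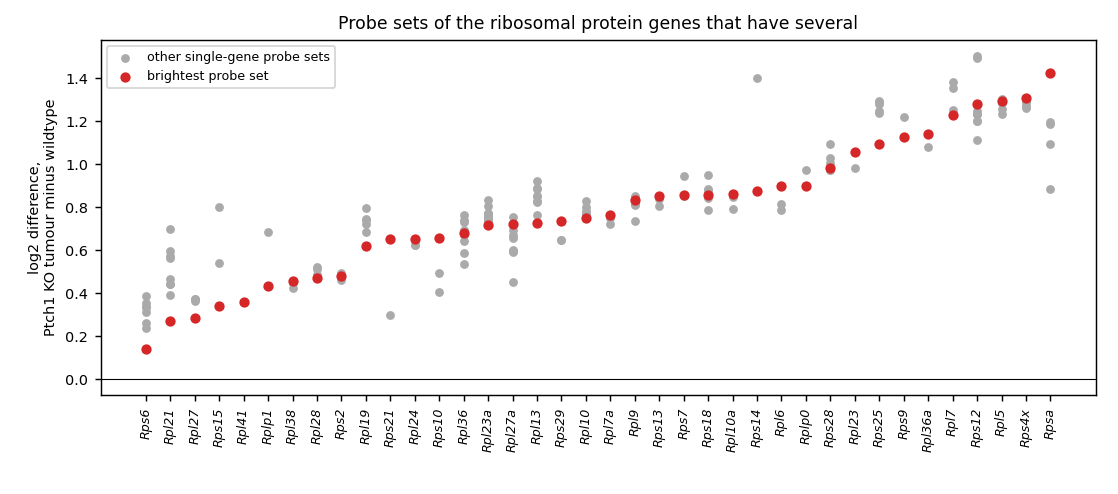
Log2 difference of the tumours from wildtype for each probe set of the standard genes with several of them, 1 column per gene, with the brightest probe set in red. All lie above 0, and the probe sets of a gene span at most 0.539 log2 units, in Rpsa.

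Other translation genes from fixed lists were set beside the ribosomal proteins. Fau, whose product carries ribosomal protein eS30 but whose symbol the rule leaves out, rose by 0.25 in Sufu KO (adjusted p = 0.0469) and 0.45 in the tumours (adjusted p = 0.000641). Of 17 other genes with TOP mRNAs, 11 were called higher in Sufu KO and 15 in the tumours, beside 13% and 22.1% of all tested genes. In each, 0 were called lower, beside 12.4% and 24.7%. All 17 differences were above 0 in both, with medians of 0.36 and 0.58. Eef1b2, which reloads elongation factor Eef1a1 with GTP, read 9.40, 9.48 and 9.47 in wildtype, 9.93, 10.06 and 10.10 in Sufu KO, and 10.62, 10.85 and 10.37 in the tumours, differences of 0.58 and 1.16 (adjusted p = 0.00164 and 1.75e-06). Eef1a1 itself rose by 0.46 and 0.55, and the tumours did not differ from Sufu KO by the test (0.09, adjusted p = 0.435). Npm1, a nucleolar chaperone, rose by 0.49 and 1.20, and Eif3f, a subunit of the initiation factor that binds the small subunit, by 0.42 and 0.88. Eef1d and Eif3k were the TOP genes not called in the tumours (0.17 and 0.24, adjusted p = 0.105 and 0.107).

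Of 19 nucleolar genes that build ribosomes, 10 were called higher in Sufu KO and 17 in the tumours, beside 13% and 22.1% of all tested genes. In each, 0 were called lower, beside 12.4% and 24.7%. Their differences were above 0 in 16 and 18 of the 19. Nop58, a core protein of the particles that methylate rRNA, read 7.43, 7.30 and 7.36 in wildtype, 7.75, 7.89 and 7.997 in Sufu KO, and 8.96, 9.04 and 8.65 in the tumours. Its tumour difference of 1.52 (2.87-fold, adjusted p = 1.74e-07) exceeded that of every ribosomal protein gene. Dkc1, which converts uridine in rRNA to pseudouridine, rose by 0.51 and 1.40, and the helicase Ddx21 by 0.65 and 1.09. Polr1b, a large subunit of RNA polymerase I, differed by -0.03 in Sufu KO (adjusted p = 0.88) and rose by 0.78 in the tumours (adjusted p = 8.56e-05).

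Of 18 genes of mTORC1 and TOP control, 2 were called higher and 1 lower in Sufu KO, beside 13% and 12.4% of all genes. In the tumours 2 were called higher and 5 lower, beside 22.1% and 24.7%. Mtor, the kinase, read 9.19, 9.26 and 9.30 in wildtype, 9.23, 9.26 and 9.31 in Sufu KO, and 8.99, 8.86 and 8.95 in the tumours, lower in the tumours than in wildtype (-0.32, adjusted p = 0.00138) and than in Sufu KO (-0.33, adjusted p = 0.00199). Rptor, its scaffold, and Rps6kb2, an S6 kinase, differed by -0.34 and -0.38 in the tumours (adjusted p = 0.000902 and 0.000431). Eif4ebp2 and Eif4ebp1, which hold back the cap-binding factor Eif4e, rose in the tumours by 0.54 and 0.45 (adjusted p = 0.000821 and 0.00194). In Sufu KO Eif4ebp2 rose by 0.38 and Tsc1, an inhibitor of mTORC1, by 0.21 (adjusted p = 0.017 and 0.0233). Larp1, which binds the TOP cap, differed by 0.09 and 0.16 without a call. These are RNA levels and do not measure the activity of the kinase. Of 9 chaperones that escort ribosomal proteins, 1 was called higher in Sufu KO, Nap1l1, which is also in the TOP list. In the tumours 3 were, Nap1l1, Ltv1 and Bccip. Of all genes, 13% and 22.1% were called higher.

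The ribosome of the mitochondrion, built from a separate set of nuclear genes, stayed near 0. Of 77 mitochondrial ribosomal protein genes, 2 were called higher and 0 lower in Sufu KO, beside 13% and 12.4% of all genes. In the tumours 12 were called higher and 6 lower, beside 22.1% and 24.7%. Their median differences were 0.01 and 0.05. Mrpl13 was the highest in the tumours, at 0.70 (adjusted p = 0.000594), and Mrps21 the lowest, at -0.51 (adjusted p = 0.00135).

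**Figure D5:**
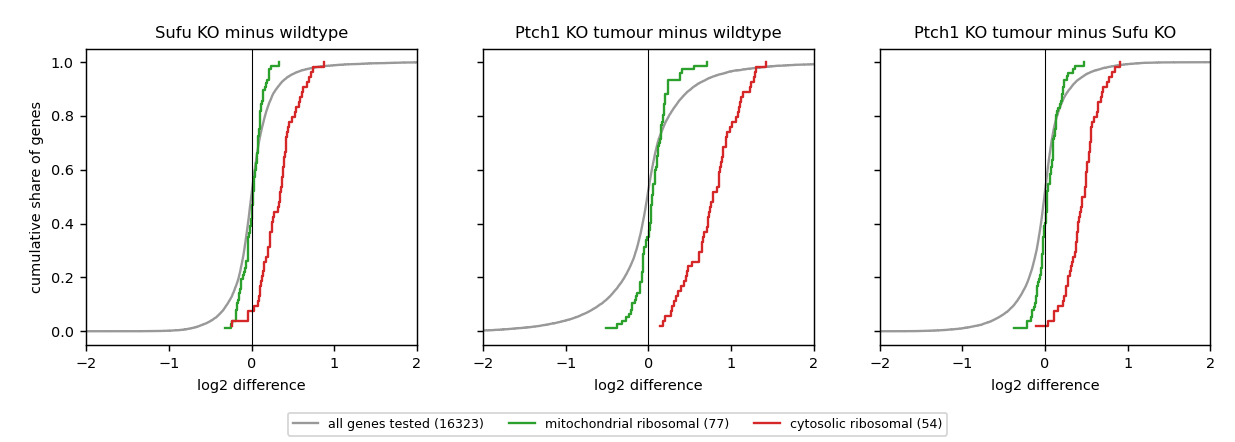
Cumulative share of genes against log2 difference in the 3 comparisons, for the standard ribosomal protein genes, the mitochondrial ribosomal protein genes and all tested genes. The cytosolic curve lies to the right, with medians of 0.34, 0.78 and 0.46, while the mitochondrial medians are 0.01, 0.05 and 0.03.

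Cell type markers moved with the same groups. All 8 measured markers of dividing cells were called higher in Sufu KO and in the tumours, and their summed level, as log2, was 10.4 to 10.6 in wildtype, 12.1 to 12.3 in Sufu KO and 12.8 to 13.3 in the tumours. Of 8 granule neuron progenitor markers, 7 were higher in each mutant group, with sums of 12.7 to 12.9, 13.6 to 13.7 and 13.81 to 14.01. Mycn was among them, with log2 differences from wildtype of 1.72 (Sufu KO) and 2.80 (tumours; adjusted p = 1.62e-06 and 5.26e-09). All 9 mature granule neuron markers were lower in both, with sums of 14.6 to 14.8 in wildtype, 13.85 to 13.93 in Sufu KO and 12.4 to 13.1 in the tumours. All 5 Purkinje cell markers and all 6 oligodendrocyte markers were lower in both as well, with sums of 13.3 to 13.4, 12.7 to 12.8 and 11.5 to 11.7 for Purkinje cells. Of 7 Bergmann glia and astrocyte markers, 5 were lower in each, and of 6 endothelial markers 3 in Sufu KO and 6 in the tumours. Of 7 microglial markers, 1 was higher in Sufu KO and 4 in the tumours, with sums of 9.87 to 9.92, 9.99 to 10.2 and 10.4 to 10.6. Beside these marker counts, 13% of all tested genes were called higher and 12.4% lower in Sufu KO. In the tumours these shares were 22.1% and 24.7%. The microglial count in Sufu KO, 1 of 7, is near its share. Sufu KO replicate 3, the array with the highest ribosomal protein levels of its group, also had the highest dividing cell sum of its group (12.28), and tumour replicate 3, with the lowest, had the lowest sum (12.82). This was not particular to dividing cells. Sufu KO replicate 3 also had the highest progenitor (13.66), mature granule neuron (13.93) and microglial (10.18) sums of its group, and alone there had high Xist. Tumour replicate 3 had the lowest progenitor sum (13.81) and the highest mature granule neuron sum (13.08) of its group. The part of these cell types in the ribosomal protein values was not tested.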

How the data were processed

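Total RNA of 9 samples, 3 a group, was measured on Affymetrix Mouse Gene 1.0 ST arrays, per the labels' protocols. Values deposited by the authors are log2 levels of 35556 probe sets on each array, a scale read from the values. How background was corrected and arrays were normalized and summarised is not given in the sources used. The values carry no detection calls. Array medians lay between 6.72 and 6.79. No value column was left unused.

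Probe sets were named with the platform annotation and a RefSeq gene table (GRCm38.p6): 21789 named 1 gene, 1621 several and 12146 were not listed. Of the first, 21698 matched the RefSeq table by identifier. Probe sets naming several genes were left out. The probe set with the highest mean stood for a gene. Of 19938 genes, 16323 were tested, namely those that exceeded the 25th percentile of the array on 3 arrays or more.

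Group means were compared with limma 3.58.1 in R 4.3.3 over all 9 arrays, with empirical Bayes moderation and 2-sided p-values adjusted by the Benjamini-Hochberg method over all tested genes (threshold 0.05). The fit was tested on simulated data. SE is the moderated standard error, and folds are the log2 differences on the linear scale.

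The members and lists were chosen with earlier results of these data known. The genes named by rule were the copies and their parents, Rpsa, Rplp0, Rplp1, Rplp2, Rpl5, Rps6 and Rps19, and in each comparison the 5 highest and 5 lowest called differences of standard genes, with up to 3 genes of each context list by smallest p. Not every gene taken by rule is described. Rpl6, Rpl9, Rpl28, Rpl36 and several context genes have no values above, and Rpl13 and Rpl30 are given only below. The rule also took the widest SD within a group and genes called against the common direction. Rpl38, Rpl14, Rpl12, Rpl32l, Rps4l, Rps23rg1, Larp1, Eef1d, Eif3k and Mycn, among others, were named after their values were seen. Protein sequences were not used here. Replicate numbers were checked for pairing, and alternatives in normalization, filter, probe set choice, variance model, array weights, sex and left-out arrays were run.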

Additional observations from a re-analysis of the deposited data

How the results depend on the processing

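Under all alternatives run, the counts of the 62 tested genes called higher kept within 1.5 times of 32 (Sufu KO against wildtype), 55 (tumours against wildtype) and 43 (tumours against Sufu KO), and no named gene's called difference reversed. Leaving out 1 array gave 24 (without Sufu KO replicate 3) to 38 (without Sufu KO replicate 1), 52 to 55, and 34 (without Sufu KO replicate 1) to 47 (without Sufu KO replicate 3). The median differences then ran from 0.244 to 0.395, 0.715 to 0.787 and 0.370 to 0.515. The shares of all tested genes called in the alternatives were not set beside the counts. Settings other than left-out arrays gave 30 to 39, 53 to 56 and 39 to 52 calls, the highest for Sufu KO against wildtype and between the mutants coming with estimated array weights.

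The median in the tumours against wildtype, 0.744, moved to 0.879 with the sex covariate and to 0.618 over genes with 1 probe set, an alternative chosen after seeing the data, as was the dimmest probe set. The Sufu KO median, 0.296, was 0.395 and 0.195 in these settings. The medians over genes with 1 probe set take in copies and look-alikes, most of which have 1 probe set. Over the 16 standard genes with 1 probe set, the medians were 0.84 in the tumours and 0.26 in Sufu KO. Over all 54 standard genes they were 0.78 and 0.34. The cause of these moves was not tested. Rpl38 was called lower in Sufu KO against wildtype with array weights and without Sufu KO replicate 3, and Rpl29 lower in the tumours than in Sufu KO with array weights (-0.18, adjusted p = 0.0271). With the replicate number as a block the counts were 32, 55 and 43. Same-numbered arrays had correlations of deviations from -0.313 to 0.352, and differently numbered ones from -0.350 to 0.397. With 3 arrays a group, this check cannot tell whether same-numbered samples share more than a number. Among 37 named genes, the call held in every alternative for 15 of 22 called in Sufu KO and 29 of 32 called in the tumours, each against wildtype, and for 19 of 24 called between mutants. The call of Rpl13 in Sufu KO (0.22, adjusted p = 0.0441) was among the weakest. It was lost without wildtype replicate 3 (0.16, adjusted p = 0.169) and in several other settings. So was that of Rpl30 between the mutants (0.27, adjusted p = 0.0499997), for one without tumour replicate 2 (0.15, adjusted p = 0.21). Values carry no background measure, so dim genes such as Rpl39l and Rpl3l have no lower bound.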
